A study of Mus musculus with 19 samples.

Results

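The striatal transcriptome of wild-type (WT) mice was described from 7 of the 19 mice whose striatum was sequenced, that is, all mice whose label gives the wild-type genotype. The mice were on a C57/BL/6 background and 6 months old, and RNA was extracted with Trizol from the dissected striatum. Each mouse gave a single library, and the mice are called WT1 to WT7 after their replicate numbers. The other 12 mice of the study carry huntingtin knock-in alleles and entered no step here. Sex and day of death are not among the labels.

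The striatum is the input nucleus of the basal ganglia. Nearly all of its neurons are GABAergic spiny projection neurons, which receive glutamate from cortex and thalamus and dopamine from the midbrain. Those of the direct pathway carry the D1 dopamine receptor, substance P and dynorphin, and those of the indirect pathway carry the D2 dopamine receptor, an adenosine receptor and enkephalin. Sparse cholinergic and GABAergic interneurons, glia and vessels make up the rest. The striatum lies under the cortex, beside the lateral ventricle with its ependyma and choroid plexus, and next to septum, thalamus and hypothalamus, so that a dissected piece can hold RNA of these neighbours.

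Between 17281603 and 26388542 reads were counted on genes in each mouse (median 18945441), so that 3 counts, taken as the floor, were worth between 0.114 and 0.174 CPM (counts-per-million of the library total). Reads fell on 25771 to 28700 genes per mouse, and 15263 to 15810 genes reached 1 CPM. No library was a copy of another, since the chi-square per degree of freedom between any 2 libraries was at least 8.59. Pearson's r of log2(CPM + 1) across the 15542 genes that passed the filter on low counts lay between 0.979 and 0.995. WT3 had the lowest mean r with the other mice, 0.982 against 0.987 to 0.990, and stood at the end of the first principal component, which held 35.2% of the variance. WT1 differed from the other 6 mice in its sex-linked RNA, as described further on. Calls that rest on WT3 or WT1 are therefore also given without that mouse, as are the spans of some list scores.

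Protein-coding genes took 96.6% of the counts in the median mouse (96.5% to 97.0%), and lincRNAs took 1.21%. The counts were spread widely, since the 100 most counted genes of each mouse held 18.1% to 19.6% of its counts and 997 to 1142 genes were needed to reach 50%. Genes of the mitochondrial genome held 4.68% to 5.84%. Levels of different genes are compared as TPM (transcripts-per-million), in which the count of a gene is divided by the length of its exons. Among the 20 genes with the highest median TPM, 10 are mitochondrial, with mt-Co1 (a subunit of cytochrome c oxidase) at 41863 TPM, mt-Cytb (cytochrome b) at 26313 TPM and mt-Nd1, mt-Nd2, mt-Nd4, mt-Nd5 and mt-Nd6 (subunits of complex I) at 23536, 13481, 10914, 8309 and 5391 TPM. The mitochondrial ribosomal RNAs mt-Rnr1 and mt-Rnr2 stood at 12308 and 10290 TPM. The highest value, 63693 TPM for the annotated microRNA precursor Gm23935, and the 4512 TPM of the transfer RNA mt-Tp come from features of only 57 and 67 bases, for which division by length inflates TPM. The other mitochondrial protein genes mt-Co2, mt-Co3, mt-Atp6, mt-Atp8, mt-Nd3 and mt-Nd4l had a median of at most 69.6 TPM; near-identical copies of them lie in the nuclear genome, and reads that match both places are not counted, so their level is uncertain.

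The nuclear genes among the first 20 were shared by most brain cells or marked glia. Among them were Rplp1 (a ribosomal stalk protein, 3765 TPM), Cst3 (cystatin C, 3122 TPM), Apoe (the main lipid carrier of the brain, 2994 TPM), Calm2 (calmodulin, 2954 TPM), Selenow (a selenoprotein, 2878 TPM), Cpe (carboxypeptidase E, which processes neuropeptides, 2582 TPM) and Eef1a1 (a translation elongation factor, 2466 TPM). With them stood Mbp, the myelin basic protein gene, at 2514 TPM. The highest gene of spiny projection neurons was Ppp1r1b, which encodes DARPP-32, the integrator of dopamine signals in these cells. Its level was 2106 TPM in the median mouse, rank 11 among nuclear protein-coding genes, and ranged from 1463 to 2678 TPM.

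The defining markers of striatum were present in every mouse. The 18 genes common to both kinds of spiny projection neuron summed to 8877 TPM in the median mouse (7348 to 11124), the highest summed TPM of the cell-type lists. Such sums depend on the number of genes in a list. In summed CPM these 18 genes had 14418 in the median mouse, and the 13 genes of myelinating oligodendrocytes 14449. Other high members of the projection neuron list included Scn4b (a sodium channel subunit, 1023 TPM) and Pde1b (a phosphodiesterase, 928 TPM). Adcy5, the adenylyl cyclase on which dopamine receptors act, had 816 TPM, and Rasd2, a striatal small GTPase, 763 TPM. The 6 measured indirect pathway genes summed to 2884 TPM, of which Penk, the enkephalin precursor, had 1945 TPM (rank 14). Adora2a, the striatal adenosine receptor, had 443 TPM and Drd2, the D2 receptor, 323 TPM. The 9 direct pathway genes summed to 844 TPM, led by Drd1 (the D1 receptor, 233 TPM), Tac1 (the substance P precursor, 192 TPM) and Pdyn (the dynorphin precursor, 172 TPM). Drd1 had a lower TPM than Drd2 in every mouse, with a ratio of 0.549 to 0.791 (mean 0.700 ± 0.0845, SD, n = 7), and the ratio of Tac1 to Penk was 0.0846 to 0.113.

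Interneuron genes summed to less than the list common to both pathways. The 10 GABA interneuron genes summed to 1460 TPM, mostly from the peptide genes Sst (somatostatin, 779 TPM) and Npy (neuropeptide Y, 271 TPM) and from Pvalb (parvalbumin, 319 TPM). The 8 cholinergic genes summed to 216 TPM, led by Ecel1 (an endopeptidase) at 67.6 TPM, and Chat, the acetylcholine-synthesizing enzyme, had 23.8 TPM. Among glia, the 13 genes of myelinating oligodendrocytes summed to 8388 TPM (6562 to 10694), close below the projection neuron list. The 13 astrocyte genes summed to 2855 TPM, with Aldoc (an aldolase, 772 TPM) and Slc1a2 (the main glutamate transporter, 669 TPM) as the highest. The 14 microglial genes summed to 1044 TPM, led by C1qa (a complement subunit, 191 TPM), and the 10 genes of oligodendrocyte precursors summed to 568 TPM, led by Olig1 (a lineage transcription factor, 260 TPM). The myelin list holds Trf, the transferrin gene, at only 2.72 TPM. Trf (chr9:103204001-103230444 on GRCm38) overlaps Gm20425 on the same strand, and reads in an overlap are not assigned to either gene, so its level is uncertain.

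Vessels and the neighbours of the striatum gave small sums. Endothelial genes summed to 305 TPM, mural cell genes to 180 TPM and fibroblast and meningeal genes to 15.4 TPM, with Slc2a1 (the glucose transporter of the blood-brain barrier, 66.2 TPM), Vtn (vitronectin, 75.1 TPM) and Slc6a13 (a GABA and taurine transporter, 2.99 TPM) as their highest members. Haemoglobin genes and Alas2 (a haem-synthesizing enzyme) summed to 645 TPM. The lists for choroid plexus (191 TPM), cortical excitatory neuron (153 TPM), ependyma (101 TPM), septum and preoptic area (80.3 TPM), thalamus (57.7 TPM) and hypothalamic peptides (33.1 TPM) had medians below those of the striatal lists, although the cortical list reached 927 TPM in WT3 and the choroid plexus list 1088 TPM in WT2, above the direct pathway median. Ttr alone, which encodes a thyroid hormone carrier, gave 1016 of these 1088 TPM, and its median was 156 TPM. Pituitary hormone genes summed to 3.80 TPM, and Cga, the common glycoprotein hormone subunit, had 0 counts in all 7 mice, which allows at most 0.114 to 0.174 CPM. In tissue RNA, fewer cells of a type and less RNA per cell cannot be told apart.

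**Figure D1:**
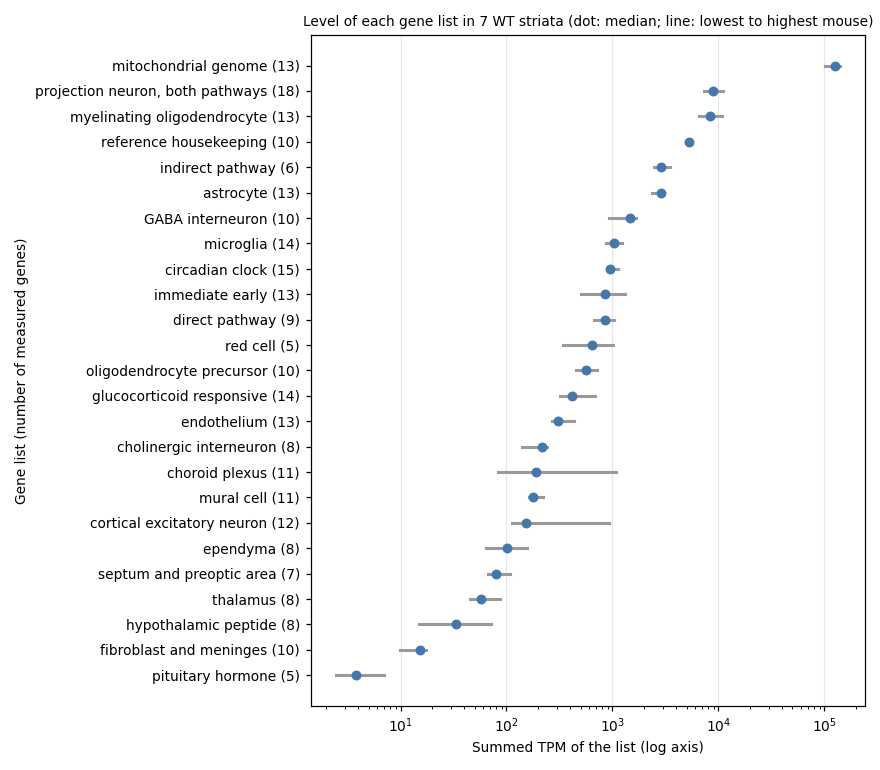
Summed TPM of each gene list on a log axis, with the number of measured genes in brackets; dots mark the median of the 7 WT mice and lines run from the lowest to the highest mouse. The projection neuron (18 genes, 8877 TPM) and myelin (13 genes, 8388 TPM) lists had the highest summed TPM of the cell-type lists, which differ in number of genes. The lines of the cortical and choroid plexus lists were the longest among lists above 100 TPM.

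The spread between the 7 mice was then measured gene by gene. The coefficient of variation (CV, SD over mean of CPM) had a median of 13.3% over the 15542 tested genes. It was under 10% in 5017 genes (32.3%) and over 50% in 257 genes (1.65%). To ask which genes varied more than genes of like abundance, the residual quasi-likelihood variance of each gene in edgeR was divided by the trend over all genes. This ratio has an expected value near 1, and its median was 0.988. By this one-sided test 12 genes (0.0772% of those tested) varied more than the trend at an adjusted p under 0.05, and 947 genes (6.09%) did so at an unadjusted p under 0.05. The unadjusted share lies near the nominal level of that limit. P-values here measure only the spread between these libraries, since the labels say no more of their origin than a replicate number. The study's methods name a batch of sacrifice as a covariate, but the labels do not give it, so batch and mouse cannot be told apart here.

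Of the 12 genes, 9 were highest in WT3, 2 in WT2 and 1 in WT7. The 9 genes of WT3 include Slc17a7 (the vesicular glutamate transporter of cortical neurons), the cortical transcription factors Tbr1, Neurod2 and Nr4a2, Slc30a3 (the synaptic vesicle zinc transporter) and Cck (the cholecystokinin precursor). Vxn (vexin, a factor of neurogenesis), Nptx1 (a neuronal pentraxin of excitatory synapses) and Ipcef1 complete them. On GRCm38, Slc17a7 lies at chr7:45163949-45176142, Tbr1 at chr2:61802930-61814114, Cck at chr9:121489824-121495694, Ttr at chr18:20665280-20674321, Dnah6 at chr6:73017606-73221651 and the pseudogene Gm28438 at chr1:24612775-24613119, and each value sums reads over all annotated exons. Without WT3, 20 genes passed, of which 4 were among the 12: Slc17a7, Ttr, Gm28438 and Dnah6. Slc17a7, Ttr and Gm28438 were the 3 genes that passed with every mouse left out in turn.

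**Figure D2:**
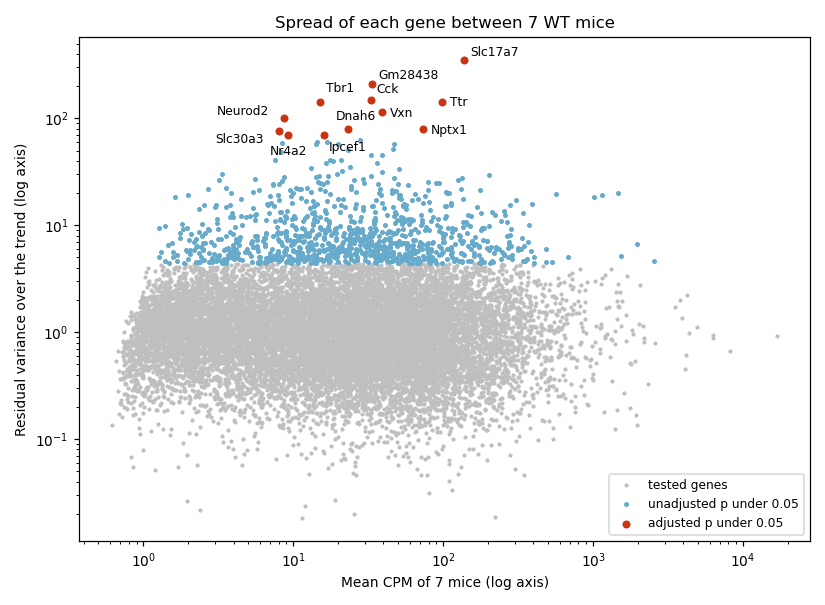
Residual variance over the trend against mean CPM for the 15542 tested genes, both on log axes; each point is a gene, and colours mark an unadjusted or adjusted p under 0.05. Slc17a7 lies at the top with a ratio of 350, and the 12 genes with an adjusted p under 0.05 have mean CPM of 8.04 to 138.

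High cortical RNA lay mostly in a single mouse. Slc17a7 had 803 CPM in WT3, and at most 61.8 CPM in the other 6 mice, with a median of 30.5 CPM over all 7. Its variance was 350 times the trend (edgeR, adjusted p = 0.00549). Without WT3 the ratio was 48.1 (adjusted p = 0.0215), with WT2 then the highest. Tbr1 had 82.2 CPM in WT3 against 1.53 to 8.76 CPM elsewhere, Neurod2 49.3 against 0.792 to 4.59 CPM, and Slc30a3 42.4 against 1.07 to 4.09 CPM. WT3 was the highest mouse in each of these genes. The respective ratios were 143, 100 and 76.2, with adjusted p of 0.0145, 0.0288 and 0.0440, and without WT3 the adjusted p were 0.378, 0.472 and 0.699.

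Cck had 150 CPM in WT3 and 8.07 to 21.2 CPM in the others (ratio 147, adjusted p = 0.0145), and Vxn 161 CPM against 14.5 to 26.1 CPM (ratio 114, adjusted p = 0.0231). Nptx1 had 242 CPM against 35.6 to 65.3 CPM (ratio 79.0, adjusted p = 0.0440), and Ipcef1 64.9 CPM against 5.58 to 10.8 CPM (ratio 69.2, adjusted p = 0.0483). Nr4a2 had 38.5 CPM in WT3, 12.5 in WT2, 5.88 in WT1 and 1.22 to 2.52 in WT4 to WT7 (ratio 69.3, adjusted p = 0.0483). WT2 and WT1 likewise came next after WT3 in Neurod2 (4.59 and 2.02 CPM) and Nptx1 (65.3 and 44.7 CPM). This order did not hold in every called gene. WT7 lay above WT1 in Slc17a7, Tbr1, Vxn, Cck and Slc30a3. It also lay above WT2 in Cck (21.2 against 19.0 CPM) and Slc30a3 (3.62 against 1.90 CPM). Cck, Vxn, Nptx1, Ipcef1 and Nr4a2 also lost their call without WT3, with adjusted p of 0.108 to 0.828. Nptx1, Ipcef1, Nr4a2 and Slc30a3 lost it also without WT1 (adjusted p = 0.0638 for each) and without WT7 (0.0511 to 0.0572). Among the 9 tested genes of the cortical list, 8 were highest in WT3, against 17.1% of all tested genes, and 7 passed at an unadjusted p under 0.05 (6.09%). Neurod6 and Emx1 (transcription factors of cortical projection neurons) did not pass the filter on low counts, and had 19.96 and 11.9 CPM in WT3 and at most 3.01 and 1.06 CPM in the others. Lamp5, the cortical list gene with the highest TPM (94.0), differed little, at 70.0 to 97.1 CPM with WT7 the highest. The score of the cortical list, the mean log2(CPM + 1) of its genes, was 5.57 in WT3 and 2.29 to 3.30 in the others.

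**Figure D3:**
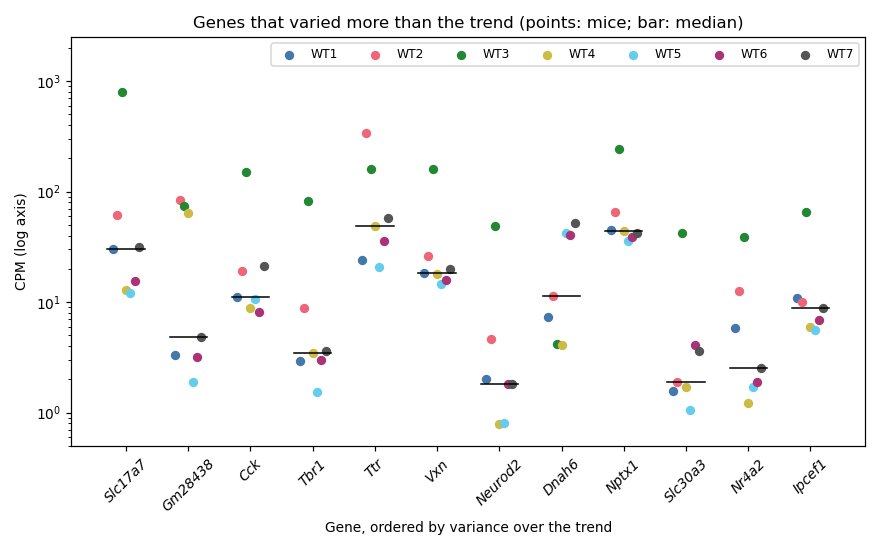
CPM in each of the 7 mice, on a log axis, of the 12 genes with an adjusted p under 0.05, ordered by variance over the trend; points are mice and bars medians. WT3 stands alone at the top in 9 genes, for example at 803 CPM for Slc17a7, whereas Ttr was highest in WT2 at 339 CPM and Dnah6 was high in WT5 to WT7.

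In the same library other lists were low. WT3 was the lowest mouse in 11 of 13 myelin genes, 9 of 13 astrocyte genes, 8 of 10 oligodendrocyte precursor genes and 7 of 8 cholinergic genes, against 26.8% of all tested genes. Mobp, a myelin protein of oligodendrocytes, had 1418 CPM in WT3 and 1799 to 2103 CPM in the other mice, and Gfap, the astrocyte filament, had 89.6 CPM against 160 to 252 CPM in the other mice. Slc5a7, the choline transporter, had 28.7 CPM in WT3 and 39.3 to 55.8 CPM in the others (ratio 5.59, edgeR, unadjusted p = 0.0294, adjusted p = 0.684). None of the genes of these 4 lists passed at an adjusted p under 0.05. The 18 genes common to both kinds of projection neuron summed to 13795 CPM in WT3, within the 12200 to 17088 CPM of all mice. The direct pathway list was lowest in WT3, at 621 CPM against 724 to 943 CPM in the others, with 6 of its 9 genes lowest there. How much of the low values follows from the cortical RNA taking a share of the counts was not tested.

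Genes of the choroid plexus set WT2 apart. Ttr, the thyroid hormone carrier that choroid plexus secretes into the cerebrospinal fluid, had 339 CPM in WT2 and 162 CPM in WT3, and the other 5 mice had 20.8 to 57.5 CPM (ratio 143, edgeR, adjusted p = 0.0145). WT2 was highest in 7 of the 8 tested choroid plexus genes, against 11.1% of all tested genes. Kl (klotho) had 18.4 CPM in WT2 and 5.27 to 9.16 CPM in the others, and Clic6, a chloride channel protein, 38.5 against 15.8 to 28.1 CPM. Sostdc1, a secreted BMP and Wnt antagonist, had 3.96 CPM in WT2 and 0.682 to 1.85 CPM elsewhere. The 3 genes had unadjusted p of 0.0102, 0.0146 and 0.0205 and did not pass after adjustment. Defining plexus genes that failed the filter, Kcnj13, Kcne2 and Aqp1, were at most 1.21, 2.01 and 2.01 CPM, all in WT2. The list score was 3.08 in WT2 and 1.67 to 2.20 in the other mice, and its span of 1.41 fell to 0.53 without WT2.

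Ependymal genes, by contrast, followed no single mouse. Their score ran from 1.99 in WT4 to 3.12 in WT6 and 3.14 in WT7, with WT2 at 2.97. WT7 was highest in 5 of 8 genes (14.8% of all tested genes) and WT4 lowest in 6 of 8 (11.5%). Foxj1, the master factor of motile cilia and the highest of the list at 28.5 TPM, had 14.6 CPM in the lowest mouse, a median of 21.1 and 29.5 CPM in the highest, WT2. Ak7, a ciliary adenylate kinase, had 3.54, 7.97 and 12.7 CPM as lowest, median and highest value (ratio 7.48, unadjusted p = 0.0149, adjusted p = 0.550). The dynein heavy chain gene Dnah6, also of motile cilia but not of this list, was called. It had 42.7, 40.5 and 51.8 CPM in WT5, WT6 and WT7 and 4.12 to 11.5 CPM in WT1 to WT4 (ratio 79.5, adjusted p = 0.0440). It lost its call without WT1 (adjusted p = 0.0638) or without WT7 (0.0591). Since WT2 had the highest Foxj1 but only 11.5 CPM of Dnah6, the values did not follow each other. WT5 to WT7 were also the 3 most deeply sequenced libraries, at 23457270 to 26388542 counts against at most 18945441, and the part of depth or of preparation in this split was not tested.

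The septal, thalamic and hypothalamic lists had spans of 0.71, 0.99 and 0.68. In summed CPM the hypothalamic list, at 4.75 to 21.7 CPM, differed 4.57-fold between mice, against 2.37-fold for the ependymal list. Prkcd and Slc17a6, a protein kinase and the vesicular glutamate transporter of thalamic neurons, had 10.8 to 45.7 CPM and 0.897 to 14.7 CPM, both lowest in WT2 and highest in WT7 (unadjusted p = 0.00109 and 0.00131, adjusted p = 0.198 and 0.203). Trh, the thyrotropin-releasing hormone precursor, had 1.69 CPM in WT2 and 14.5 CPM in WT7 (unadjusted p = 0.00213, adjusted p = 0.256). WT2 was thus lowest and WT7 highest in these 3 genes. In WT1 the septal transcription factor Zic1 had 47.3 CPM, with 20.6 to 29.3 CPM in the others (edgeR, unadjusted p = 0.0103, adjusted p = 0.482). Against 8.06% of all tested genes, 4 of the 6 tested genes of the septal list were highest in WT1. Lhx2, the septal list gene with the highest TPM (23.4), was not among them and was highest in WT3 at 38.7 CPM. Rora, the highest of the thalamic list at 17.8 TPM, stayed at 56.9 to 77.5 CPM.

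**Figure D4:**
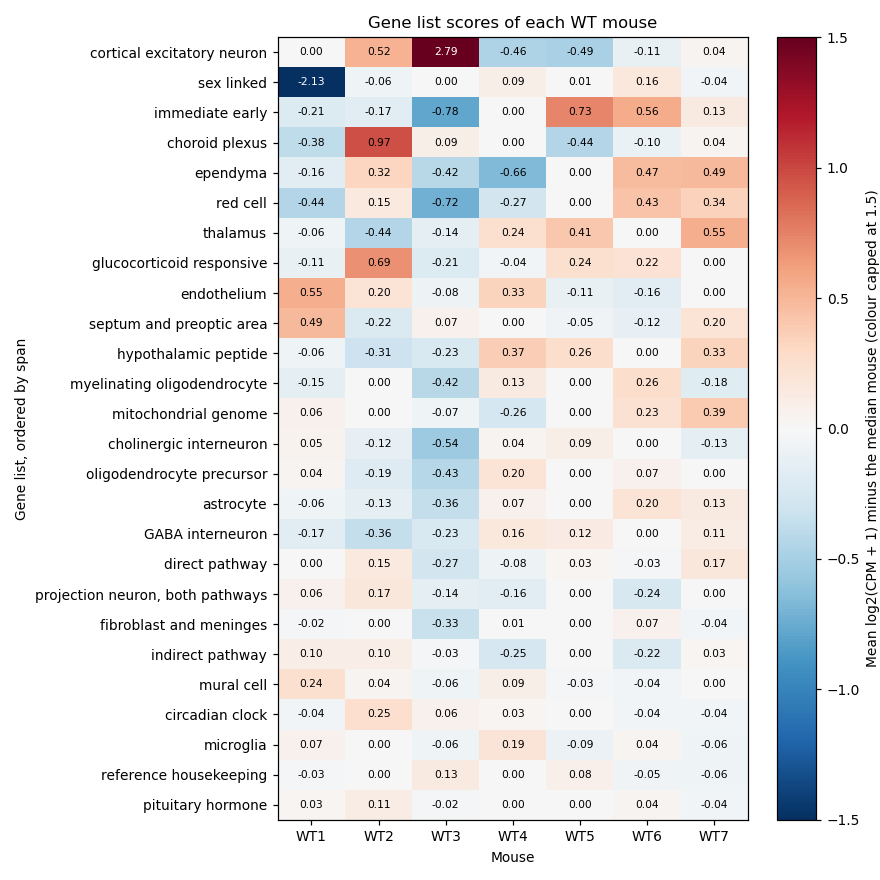
Score of each gene list in each WT mouse as the mean log2(CPM + 1) minus the median mouse, with colours capped at 1.5 and lists ordered by span. The cortical list in WT3 was 2.79 above the median, the immediate early list ran from -0.78 in WT3 to 0.73 in WT5, and the reference housekeeping list stayed between -0.06 and 0.13.

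Scores of projection neuron genes spanned less than those of the cortical, choroid plexus and ependymal lists. The score of the 18 projection neuron genes ran from 8.88 in WT6 to 9.29 in WT2, a span of 0.41, and 0 of the 18 genes passed at an unadjusted p under 0.05 in edgeR. WT2 was highest in 12 of them (11.1% of all tested genes) and WT6 lowest in 9 (7.98%). Ppp1r1b had 1232 CPM in WT6, a median of 1648 and 2207 CPM in WT2 (CV 18.4%, ratio 3.33, unadjusted p = 0.0880). Rasd2, the list gene with the largest ratio, had 534 CPM in WT6 and 901 CPM in WT2 (ratio 3.54, unadjusted p = 0.0777). The median CV of these genes was 12.4%, against 13.3% over all tested genes, and their median ratio to the trend was 1.84, against 0.988. Drd1 and Drd2 had CVs of 15.1% and 16.5%.

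Of the direct pathway genes only Pdyn passed at an unadjusted p under 0.05, with 69.1 CPM in WT3, a median of 132 and 195 CPM in WT7 (ratio 9.62, unadjusted p = 0.00801, adjusted p = 0.445). Of the indirect pathway genes none passed, and Plxdc1, a plexin domain protein, had the largest ratio, 4.24. The GABA interneuron list held 5 of 9 tested genes past the unadjusted limit, which 6.09% of all tested genes passed. Pvalb, the calcium buffer of fast-spiking interneurons, had 34.2, 46.3 and 49.0 CPM in WT2, WT1 and WT3 and 95.4 to 121 CPM in WT4 to WT7 (ratio 25.6, unadjusted p = 0.000601, adjusted p = 0.175). The 2 sets of mice were formed from these same values, so their separation was not tested. Sst, for the low-threshold spiking interneurons, had 98.2 CPM in WT1, a median of 164 and 194 CPM in WT7 (unadjusted p = 0.0455, adjusted p = 0.792). Nos1 and Lhx6, which the same interneuron lineage expresses, had CVs of only 6.11% and 9.52%.

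Scores of the glial and vascular lists spanned 0.29 to 0.71, apart from the red cell list, which spanned 1.16. WT6 was highest in 10 of 13 myelin genes, 7 of 13 astrocyte genes and 4 of 5 red cell genes, against 21.1% of all tested genes. Mbp had 5037 CPM in WT3, a median of 6402 and 7465 CPM in WT6 (CV 13.6%), and Opalin, an oligodendrocyte membrane protein, 33.0 CPM in WT2 and 66.4 CPM in WT6 (ratio 8.51, unadjusted p = 0.0109, adjusted p = 0.486). Slc6a11, an astrocytic GABA transporter, had 140 CPM in WT3 and 374 CPM in WT4 (ratio 11.1, unadjusted p = 0.00562, adjusted p = 0.371). Aldoc, in contrast, had a CV of 5.12%. Lhfpl3, of oligodendrocyte precursors, had 16.7 CPM in WT3, 23.5 in WT2 and 28.5 to 46.0 CPM in the others (unadjusted p = 0.00847, adjusted p = 0.450). WT4 was highest in 7 of 14 microglial genes (15.2% of all tested genes), but the microglial score spanned only 0.29, and Fcrls, an Fc receptor-like gene with 8.64 to 24.5 CPM, was the only member past the unadjusted limit (unadjusted p = 0.00925).

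Endothelial genes were high in WT1. It was the highest mouse in 8 of 13 genes, against 8.06% of all tested genes, and 7 of the 13 passed at an unadjusted p under 0.05 (6.09% of all tested genes). Flt1 and Kdr, receptors of vascular endothelial growth factor, had 65.3 and 13.3 CPM in WT1 and 24.2 to 52.8 and 4.96 to 9.35 CPM in the other mice (unadjusted p = 0.00213 and 0.0355, adjusted p = 0.256 and 0.733). Cldn5, the tight junction protein of brain endothelium, had 29.6 CPM in WT1, 21.7 in WT4 and 10.7 to 17.4 CPM in the others (unadjusted p = 0.00528, adjusted p = 0.369). WT4 came after WT1 in Flt1, Kdr and Cldn5, and the span of the list score, 0.71, was 0.49 without WT1. Slc2a1 was highest in WT2, at 117 CPM, and lowest in WT5, at 57.3 CPM. Mural cell genes spanned 0.30, and their most variable gene Rgs5, a pericyte regulator of G protein signalling, ran from 44.8 CPM in WT5 to 82.9 CPM in WT1 (unadjusted p = 0.0210). None of the 7 tested fibroblast and meningeal genes passed, and Dcn (decorin) had 2.08 to 7.77 CPM. Hbb-bs, adult beta-globin, had 39.9 CPM in WT3, a median of 77.2 and 124 CPM in WT6, with WT7 at 122 CPM (ratio 21.2, unadjusted p = 0.00100, adjusted p = 0.195). The order of the mice in red cell genes was not that in endothelial genes. The red cell score was 4.46 in WT6 and 3.58 in WT1, and the endothelial score was 3.93 in WT6 and 4.64 in WT1.

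Immediate early genes, whose transcription rises within minutes of neuronal activity and which encode transcription factors and synaptic proteins, followed a shared order of mice. Of the 13 genes, 11 passed at an unadjusted p under 0.05 (6.09% of all tested genes) and 0 after adjustment, and their median ratio was 12.6 against 0.988 for all tested genes. WT5 was highest in 11 of them (12.6% of all tested genes) and WT3 lowest in 10 (26.8%). Fos had 5.38 to 7.60 CPM in WT1, WT2 and WT3, 18.1 and 20.6 in WT4 and WT7, and 30.5 and 30.8 in WT6 and WT5 (ratio 28.7, unadjusted p = 0.000442, adjusted p = 0.166). Nr4a3, an orphan nuclear receptor, had 10.4 CPM in WT3, a median of 33.3 and 67.5 CPM in WT6 (ratio 38.4, unadjusted p = 0.000196, adjusted p = 0.105). Npas4, which is selective for depolarized neurons, had 13.3 CPM in WT3 and 53.2 CPM in WT5 (ratio 24.7, unadjusted p = 0.000666, adjusted p = 0.176). Arc, a regulator of glutamate receptor traffic, had 93.7 CPM in WT3, a median of 134 and 242 CPM in WT5 (ratio 12.6, unadjusted p = 0.00405). WT5 and WT6 were thus the high end and WT3 the low end. Egr1, the list gene with the highest TPM (230), spread less, from 186 to 347 CPM, and Dusp1 and Ier2 did not pass.

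The list score was 5.84 in WT5, 5.67 in WT6, 5.24 in WT7, 5.11 in WT4, 4.94 in WT2, 4.90 in WT1 and 4.33 in WT3. The span of 1.51 became 0.94 without WT3. The 3 highest scores belonged to the 3 deepest libraries. The span was again 1.51 after all libraries had been thinned to 17281603 counts. Since thinning changes CPM only by counting error, the part of depth or of preparation in this order was not tested. The part of WT3's cortical RNA in its low values was not tested.

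The promoters of these genes were searched to describe the list. Whether the letters found bear on that order of mice was not tested. RefSeq promoter sequences on GRCm38.p6 were found for 10 of the 13 genes. The 5 letters TGACG, the core of the cyclic AMP response element (CRE) bound by CREB, occurred on either strand within 250 bases before the start of all 10 genes, and in 19.8% of 27025 genes. The full palindrome TGACGTCA, which contains that core, occurred in Btg2 and Dusp1, that is 2 of 10 against 1.77%. The letters TATAAA, of a TATA box, were found in 1 gene, Fos, against 14.3% of genes, and a CArG box, the site of serum response factor, in 1 gene, Egr2, against 1.62%. Only exact matches within the 250 bases were counted. Variant letters, such as tatataag in the Npas4 and Egr4 windows below, and sites farther away were not, so these counts do not show that the other genes lack such sites. The 180 bases before the start of 7 genes are shown, because they place the core in the most variable gene of the list, Nr4a3, and in 6 others that passed at an unadjusted p under 0.05. Capitals mark TGACG or its reverse complement CGTCA and, in Fos, also TATAAA. The windows lie on GRCm38.p6 at chr12:85473710-85473889 (plus strand) for Fos, chr4:48045125-48045304 (plus strand) for Nr4a3, chr19:4989972-4990151 (minus strand) for Npas4, chr6:85513590-85513769 (minus strand) for Egr4, chr15:101266666-101266845 (plus strand) for Nr4a1, chr7:19310046-19310225 (minus strand) for Fosb and chr8:84978749-84978928 (minus strand) for Junb.
Nr4a3: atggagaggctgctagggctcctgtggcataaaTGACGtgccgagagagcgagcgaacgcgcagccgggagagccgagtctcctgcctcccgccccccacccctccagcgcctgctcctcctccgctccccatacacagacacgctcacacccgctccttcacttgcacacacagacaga
Fos: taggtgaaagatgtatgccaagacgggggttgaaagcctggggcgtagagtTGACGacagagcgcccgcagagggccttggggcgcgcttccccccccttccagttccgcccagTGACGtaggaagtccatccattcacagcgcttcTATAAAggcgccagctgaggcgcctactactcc
Npas4: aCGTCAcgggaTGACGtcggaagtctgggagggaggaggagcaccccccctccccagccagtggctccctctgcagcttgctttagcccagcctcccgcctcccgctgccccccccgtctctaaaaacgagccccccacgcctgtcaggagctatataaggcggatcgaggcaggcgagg
Egr4: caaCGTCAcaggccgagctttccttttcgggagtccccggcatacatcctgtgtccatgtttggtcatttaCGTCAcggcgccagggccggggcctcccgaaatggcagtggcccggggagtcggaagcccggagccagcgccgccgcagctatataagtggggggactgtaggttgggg
Nr4a1: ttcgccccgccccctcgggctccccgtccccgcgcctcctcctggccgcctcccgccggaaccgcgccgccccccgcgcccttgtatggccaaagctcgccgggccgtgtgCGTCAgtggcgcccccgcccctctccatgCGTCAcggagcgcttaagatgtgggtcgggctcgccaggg
Fosb: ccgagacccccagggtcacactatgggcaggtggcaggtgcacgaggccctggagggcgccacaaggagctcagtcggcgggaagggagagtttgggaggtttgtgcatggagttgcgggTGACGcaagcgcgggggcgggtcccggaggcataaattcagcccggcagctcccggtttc
Junb: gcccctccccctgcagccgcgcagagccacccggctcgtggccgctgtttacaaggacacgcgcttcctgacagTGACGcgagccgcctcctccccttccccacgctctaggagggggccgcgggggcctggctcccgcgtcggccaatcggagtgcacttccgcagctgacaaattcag
The cores in these windows began 147 bases before the start in Nr4a3, 129 and 66 in Fos, 179 and 169 in Npas4, 177 and 109 in Egr4, 69 and 40 in Nr4a1, 60 in Fosb and 106 in Junb. Egr4, Nr4a1, Fosb and Junb, for which these windows stand, had 29.9 to 109, 62.4 to 233, 12.2 to 37.7 and 47.0 to 112 CPM, each lowest in WT3 and highest in WT5. The letters are a description of the sequence and do not show binding in these mice.

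In genes that respond to glucocorticoids the place of WT2 changed. WT2 was highest in 10 of the 13 tested genes (11.1% of all tested genes) and WT3 lowest in 10 (26.8%), and 7 passed at an unadjusted p under 0.05 (6.09%). The list score was 4.73 in WT2, 4.28 in WT5, 4.25 in WT6, 4.04 in WT7, 3.996 in WT4, 3.93 in WT1 and 3.82 in WT3, so that the 6 mice other than WT2 had the same order as in the immediate early list. Zbtb16, a zinc finger factor induced by glucocorticoids, had 54.4 CPM in WT2 and 8.02 to 17.2 CPM in the others (ratio 40.6, unadjusted p = 0.000168, adjusted p = 0.0969), and it passed without WT3 (adjusted p = 0.0176) and had an adjusted p of 0.802 without WT2. Plin4, a lipid droplet protein, had 28.5 CPM in WT2 and 4.11 to 12.2 CPM elsewhere (unadjusted p = 0.000871, adjusted p = 0.195). Sgk1, the serum- and glucocorticoid-induced kinase, differed in that WT5 came near WT2, with 267 and 281 CPM, and WT3 had 91.8 CPM (unadjusted p = 0.000976, adjusted p = 0.195). Fkbp5, a receptor co-chaperone that is a standard target, had 60.4 CPM in WT2 and 38.4 to 48.3 CPM in the others but did not pass (unadjusted p = 0.138), and Ddit4, the list gene with the highest TPM (118), had 48.5 to 80.0 CPM. The span of the list score was 0.90, and 0.45 without WT2.

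**Figure D5:**
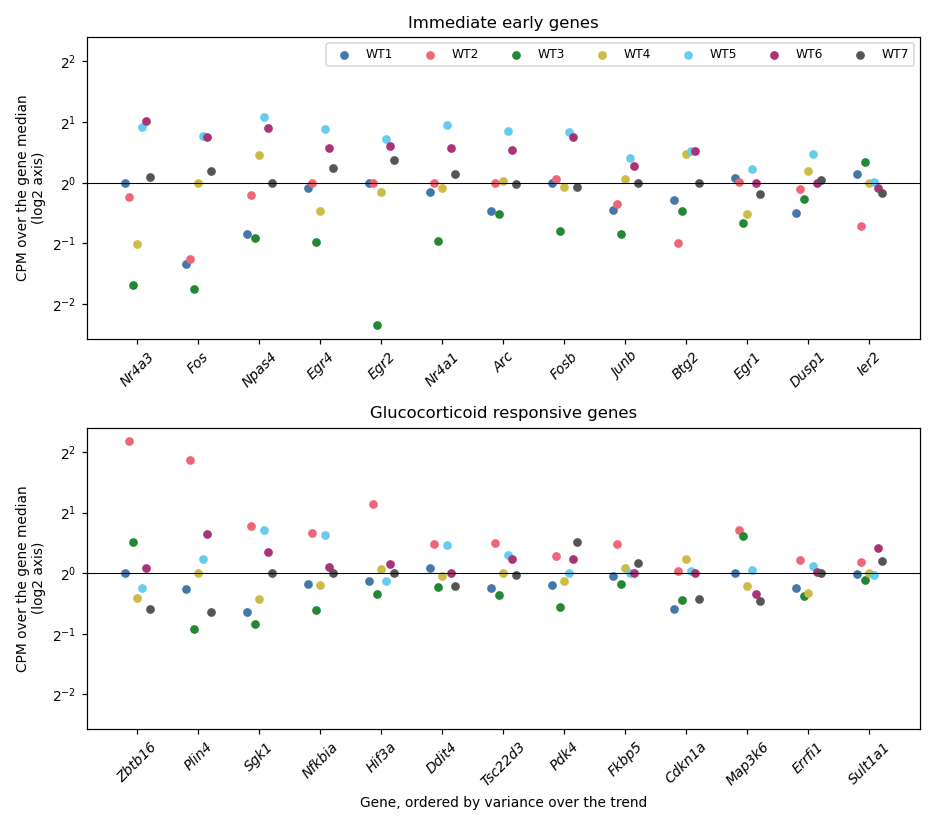
CPM over the gene's median, on a log2 axis, of the 13 tested immediate early genes (top) and the 13 tested glucocorticoid responsive genes (bottom), ordered by variance over the trend; each point is a mouse. WT5 and WT6 lie on top in most immediate early genes, and WT2 lies on top in 10 of the 13 glucocorticoid responsive genes, with 54.4 CPM of Zbtb16.

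WT2 was also highest in 7 of 15 circadian clock genes (11.1% of all tested genes), and WT1 lowest in 6 (20.9%). Per2, a repressor of the clock, had 88.6 CPM in WT2, 58.6 in WT1 and 39.8 to 47.3 CPM in the others (ratio 10.3, unadjusted p = 0.00671, adjusted p = 0.401). Cry1, its partner, had 39.0 and 36.4 CPM in WT2 and WT1 and 17.0 CPM in WT3 (unadjusted p = 0.0152, adjusted p = 0.556). WT2 and WT1 thus led in both genes. Tef, the output factor with the highest TPM of the list (185), was lowest in WT1 at 283 CPM and highest in WT3 at 474 CPM. Clock and Npas2, of the activating arm, had CVs of 4.84% and 6.00%, and the list score spanned only 0.30. The hour of death is not given in the labels.

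At the other end of the scale, the genes above 50 CPM with the smallest ratios included Ociad1, Ssrp1, Smim14 and Kat7. Ociad1, an endosomal and mitochondrial protein, had 215 to 232 CPM (ratio 0.0188), and Ssrp1, a histone chaperone subunit, 76.5 to 84.3 CPM (ratio 0.0313). The 10 reference housekeeping genes scored 7.70 to 7.88, and their summed CPM had a CV of 3.07%. Actb (cytoplasmic actin, 1567 TPM) had a CV of 3.96%. In the mitochondrial list, WT7 was highest in 7 of 11 tested genes (14.8% of all tested genes) and WT4 lowest in 7 (11.5%). These counts give each gene equal weight. In summed CPM, WT1 was highest at 49070 and WT5 lowest at 38375, with WT7 at 45511. The gene mt-Co1 had 14208 to 18958 CPM (CV 10.8%) and mt-Co2 10.8 to 30.7 CPM (edgeR, unadjusted p = 0.00564, adjusted p = 0.371).

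Sex-linked genes separated WT1 from the rest. Xist, the RNA that coats the inactive X chromosome of females, had 1031 CPM in WT1 and 0.264 to 2.95 CPM in the other 6 mice. The Y-linked genes Ddx3y, Eif2s3y, Kdm5d and Uty had 0 counts in WT1, which allows up to 0.168 CPM, and 53.9 to 80.0, 48.0 to 64.3, 38.4 to 51.0 and 14.9 to 22.8 CPM in the others. The RNA of WT1 was thus of the female pattern and that of the other 6 of the male pattern. These genes failed the filter, which asks for counts in all 7 mice. With a filter on a mean of 1 CPM instead, chosen after the values were seen, 39 genes passed, among them Xist (ratio 833, adjusted p = 0.00115), Ddx3y, Eif2s3y and Kdm5d. The high endothelial and septal values of WT1 cannot be told apart from its sex, since no other mouse shared the pattern.

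Of the 39 genes, 20 had failed the first filter, and 8 of these were pseudogenes. Gm6969, a processed pseudogene, had 23.0, 48.8 and 49.8 CPM in WT5, WT6 and WT7 and at most 0.116 CPM in the others, and Eno1b, a copy of the enolase gene, 36.2, 32.4 and 32.0 CPM against at most 0.528 CPM. Rpl34-ps1 had 17.4, 38.9 and 25.8 CPM in WT1, WT3 and WT4 and at most 0.511 CPM in the others. Gm28438, an unprocessed pseudogene called in the main test, had 84.8, 74.3 and 63.7 CPM in WT2, WT3 and WT4 and 1.88 to 4.79 CPM in the other mice (ratio 210, adjusted p = 0.0121). Gm6969 and Eno1b were high in the same 3 mice, which were also the 3 deepest libraries and those high in Dnah6, whereas Rpl34-ps1 and Gm28438 were each high in another set of mice. Reads of such near-identical copies can be assigned to either copy by small differences in sequence or in read length, so their levels are uncertain.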

How the data were processed

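Per the labels and the methods of the study, the authors trimmed reads with BBduk, aligned them with STAR to GRCm38 and counted them per gene with HTSeq. The deposited values are raw counts of whole reads; tool versions, annotation release and strand setting are not given in the sources used here. The table holds 54232 genes and 5 HTSeq summary lines, which were left out, and 4 columns that match no sample and were not used. The study removed a wild-type sample without naming it, so all 7 were kept.

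CPM used the sum over genes. Exon lengths for TPM and positions came from GENCODE M21 (54165 genes matched, 1599 of them under another version number). Genes were filtered with edgeR filterByExpr as a single group (minimum count 10, minimum total 15), scaled by TMM and fitted to a common mean with glmQLFit (edgeR 4.0.16, R 4.3.3). The residual quasi-likelihood variance was tested one-sided against the abundance trend with Benjamini-Hochberg adjustment over all tested genes, after the script had been tested on simulated data. Alternatives used limma 3.58.1 and DESeq2 1.42.0. List scores are means of log2(CPM + 1) over all measured genes.

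Named genes are the 20 with the highest TPM, those called, the 5 least variable above 50 CPM, and the highest and most variable gene of each list; other genes were named as textbook markers or after their values were seen, and some genes that the rule names are not reported here. The lists and tests were chosen with earlier results of these data known. Promoter sequences came from RefSeq on GRCm38.p6. Intervals and floors cover counting error only.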

Additional observations from a re-analysis of the deposited data

Results flagged for a closer look

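A mouse counted as standing apart when its gap to the nearest other mouse, divided by the range of all 7, passed Dixon's limit. This held for 20 of 112 list scores and genes. Chance flags about 1 in 20 groups, but many of these genes were named for their variance, so the count is not read against that share. WT3 was the mouse apart in 12, WT2 in 5 and WT1 in 3. No test of the difference between mice goes with these values, and their causes were not tested.

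Among list scores, in mean log2(CPM + 1), WT3 stood high in the cortical excitatory neuron list at 5.57 (others 2.29 to 3.30) and low in the cholinergic interneuron list at 4.20 (others 4.61 to 4.83) and the fibroblast and meninges list at 1.19 (others 1.48 to 1.60). WT2 stood high in the choroid plexus list at 3.08 (others 1.67 to 2.20) and in the circadian clock list at 6.59 (others 6.29 to 6.40). WT1 stood low in the sex-linked list at 1.71 (others 3.78 to 3.996).

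Among genes, in log2(CPM + 1), WT3 stood high in Slc17a7 at 9.65, Nptx1 at 7.93, Vxn at 7.34, Cck at 7.24, Tbr1 at 6.38, Ipcef1 at 6.04, Neurod2 at 5.65 and Slc30a3 at 5.44, where the highest other mouse was between 2.35 and 6.05. In Pdyn WT3 was low at 6.13 (others 6.98 to 7.61). WT2 was high in Zbtb16 at 5.79 (others 3.17 to 4.18) and in Lhb, a pituitary hormone subunit, at 1.08 (others 0.35 to 0.65), and low in the astrocyte gene Aldoc at 9.32 (others 9.46 to 9.55). WT1 was high in Zic1 at 5.59 (others 4.43 to 4.92) and at 0.0 in Eif2s3y (others 5.61 to 6.03).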

How the results depend on the processing

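No paired analysis was possible because a single group of mice was described, whose replicate numbers pair nothing. The count of 12 variable genes depended on the settings. It was 1 at an adjusted p under 0.01 (Slc17a7), 1 with a non-robust prior, 4 with limma variances of log2 CPM, 19 with DESeq2 size factors, 20 with at least 10 counts in every mouse, 217 by DESeq2's dispersion outliers and 575 with no filter on low counts. With a filter on a mean of 1 CPM, which was chosen after seeing the data, it was 39. Leaving out a mouse gave 7 to 25, with 20 without WT3 and 7 without WT7. The 947 genes at an unadjusted p under 0.05 became 2408 without a filter and stayed between 807 and 995 otherwise. All 12 genes were among those called with DESeq2 size factors, by dispersion outliers and without a filter, and 3 of them with limma. The number of genes with a read, 26770 in the median mouse, was 15533 at 1 CPM or more and 26566 after thinning to 17281603 counts.

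Of 26 lists, 6 spanned more than 1 log2 unit. The number was 8 with a pseudocount of 0.1 or with summed CPM, 6 with TMM scaling or after thinning, and 4 to 6 with a mouse left out, which was added after seeing the data. The highest mouse was the same for 24, 25, 16 and 26 of 26 lists with TMM scaling, the smaller pseudocount, summed CPM and thinning. With 7 mice and 1 library each, what set a single mouse apart, such as the sex pattern of WT1, cannot be told apart from the mouse itself.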

Other observations

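A set of genes outside the lists was low in WT2 and WT3 and higher in the other 5 mice. The genes were chosen for this split after their values were seen, so the lack of overlap is not a result. How many of all tested genes split the mice in this way was not counted, and WT3 was the lowest mouse in 26.8% of them. Agt, the angiotensin precursor made by astrocytes, had 19.3 and 7.58 CPM in WT2 and WT3 and 44.2 to 80.4 CPM in the others (edgeR, unadjusted p = 8.62e-05, adjusted p = 0.0670). Baiap3, a dense core vesicle protein, had 12.8 and 11.1 CPM against 29.6 to 67.0 CPM, and it passed without WT3. Dlk1 (a Notch pathway ligand) had 5.60 and 4.98 CPM against 19.6 to 33.1 CPM. Gpr101 (an orphan receptor) and Ngfr (the neurotrophin receptor p75) had 3.85 and 2.20 CPM against 15.4 to 21.6 CPM, and 4.75 and 3.82 CPM against 12.2 to 24.7 CPM. These 4 genes had adjusted p of 0.0805 to 0.175 with all mice. WT2 and WT3 were also the mice with the highest Ttr, and Prkcd, Slc17a6 and Trh were lowest in WT2. The part of neighbouring tissue in the split was not tested.

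Heat shock protein genes gave another split. Hspa1a, an inducible Hsp70, had 20.5, 16.3 and 8.02 CPM in WT5, WT6 and WT2 and 1.06 to 3.59 CPM in the others (unadjusted p = 0.000163, adjusted p = 0.0969). Hspa1b, its near-identical copy, had 38.9, 33.8 and 32.9 CPM in WT5, WT6 and WT2 and 0.370 to 7.45 CPM in the others. Reads of the pair can be assigned to either gene. Fosl2, a Fos family member outside the list, was also highest in WT5 and WT6, at 90.1 and 88.5 CPM, and lowest in WT3 at 19.8 CPM (unadjusted p = 0.000293, adjusted p = 0.138). Serpina3n, an acute-phase protease inhibitor of reactive astrocytes, had 43.2 CPM in WT6 and 5.96 to 11.04 CPM in the other mice (unadjusted p = 0.000268, adjusted p = 0.130).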
